A study of Mus musculus with 18 samples.

Results

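The genes of cholesterol and fatty acid synthesis were followed through mouse gastrulation as a list of 32 genes taken by symbol, all of which were found among the 22997 nuclear genes of the deposited tables. The list covered 8 genes of the mevalonate steps, 11 of the steps from squalene to cholesterol, 4 regulators, the sterol transfer gene Stard4, and 8 genes of fatty acid synthesis and desaturation. The study measured single cells of whole C57BL/6 wild-type mouse embryos, and its title gives the timing of mesoderm and endoderm separation as the subject. No genotype or agent differed between groups, so the groups were 2 ages and the classes of cell within them. At embryonic day (E) 6.75 the part outside the embryo proper was removed, each embryo was taken apart on its own, cells were picked by hand and CEL-Seq2 was used. At E7.5 the embryos were cut below the chorion so that extraembryonic mesoderm stayed in, embryos of 1 or 2 litters were pooled, cells were sorted by flow cytometry and mCEL-Seq2, the miniaturised automated form, was used. Age, way of collecting and protocol version therefore changed together and cannot be told apart, and the embryo of origin of a cell is unknown.

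Cells make cholesterol from acetyl-CoA through mevalonate, the isoprenoid diphosphates and squalene, followed by a long series of oxidations and isomerisations of the sterol ring. When sterol in the endoplasmic reticulum runs low, the escort protein Scap carries the SREBP transcription factors (encoded by Srebf1 and Srebf2) to the Golgi for cleavage, and the released factors switch on the genes of sterol and fatty acid synthesis; Insig proteins hold the complex back when sterol is plentiful. In the gastrulating embryo cholesterol is a membrane component and is attached to Hedgehog ligands, and the visceral endoderm that surrounds the epiblast takes up and secretes lipoproteins.

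Promoter sequences are shown for 4 genes because their values differed between the ages: Hmgcs1 and Acly were lower at E7.5, and Ebp and Scap were higher. Each is the 250 bases before the RefSeq start of the gene on the GRCm38.p6 assembly, 5′ to 3′ on the strand of the gene, and capitals mark matches on either strand to TCACNCCAC (a form of the sterol regulatory element bound by SREBP), to CCAAT (the CCAAT box) and to GGGCGG (the GC box). Hmgcs1 encodes the cytosolic synthase that makes HMG-CoA, and the window is chr13:119690101-119690350 on the plus strand. Acly encodes ATP citrate lyase, the source of cytosolic acetyl-CoA, and the window is chr11:100528001-100528250 on the minus strand. Ebp encodes the sterol isomerase that shifts the double bond of the ring, and the window is chrX:8193513-8193762 on the minus strand. The Scap window is chr9:110333038-110333287 on the plus strand.
Hmgcs1 promoter: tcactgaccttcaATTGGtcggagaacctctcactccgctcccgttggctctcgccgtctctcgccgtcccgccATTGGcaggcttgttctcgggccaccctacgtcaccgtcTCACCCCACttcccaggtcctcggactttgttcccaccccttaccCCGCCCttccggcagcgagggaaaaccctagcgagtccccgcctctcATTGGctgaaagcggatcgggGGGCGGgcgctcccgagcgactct
Acly promoter: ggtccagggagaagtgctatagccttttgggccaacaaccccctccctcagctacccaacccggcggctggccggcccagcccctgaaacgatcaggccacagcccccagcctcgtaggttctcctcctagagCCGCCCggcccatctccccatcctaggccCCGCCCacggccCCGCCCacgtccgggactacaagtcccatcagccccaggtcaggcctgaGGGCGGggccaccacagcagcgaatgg
Ebp promoter: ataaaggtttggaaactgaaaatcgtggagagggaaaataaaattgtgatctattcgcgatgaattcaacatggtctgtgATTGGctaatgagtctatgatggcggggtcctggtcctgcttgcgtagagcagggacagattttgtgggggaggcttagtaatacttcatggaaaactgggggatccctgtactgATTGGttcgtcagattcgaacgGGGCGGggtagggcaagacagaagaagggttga
Scap promoter: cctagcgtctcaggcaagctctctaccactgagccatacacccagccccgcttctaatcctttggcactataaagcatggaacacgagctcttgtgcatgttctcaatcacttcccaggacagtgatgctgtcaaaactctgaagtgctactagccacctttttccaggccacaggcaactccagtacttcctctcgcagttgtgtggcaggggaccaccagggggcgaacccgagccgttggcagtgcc

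The Hmgcs1 window held 1 match to the sterol regulatory element, 3 CCAAT boxes and 2 GC boxes. The Acly window held 4 GC boxes and neither of the other motifs, the Ebp window held 2 CCAAT boxes and 1 GC box, and the Scap window held none of the 3 motifs in these letters. Scap has another RefSeq start with a window that held 1 GC box; the window printed is the one that lies outside the annotated gene. Of the 32 genes, 25 had a RefSeq promoter entry, and Scd1, Scd2, Stard4, Fdps, Sqle, Fdft1 and Fads1 had none. TCACNCCAC was found in 1 of the 25 promoters (4%) and in 1.22% of 27025 genes; 4 of the 25 genes have several starts and so several windows, and a gene was counted if any of its windows held the motif. CCAAT was found in 19 of the 25 (76%) against 37.5% of all genes, and GGGCGG in 20 of the 25 (80%) against 35.4%. The 27025 genes were not limited to those expressed in these cells, so the shares do not compare like sets. A match describes the letters only and is no measurement of binding.

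There were 6 E6.75 libraries, whose replicate names begin with 1 or 2, and 12 E7.5 libraries, and E7.5 replicate 5 had no usable cell. The design text gives 576 and 1172 cells, the libraries used 576 and 1152 barcodes, and 543 and 429 cells held at least 2000 nuclear transcripts and were kept. The same cell barcodes were used again in different libraries, as the method provides, so a shared barcode is not a shared cell. Usable libraries of E6.75 held 2933395 to 5493791 nuclear transcripts, with 13.7% to 18.7% of the total from mitochondrial genes, and those of E7.5 held 518343 to 2627269, with 9.08% to 14.4%. Cells were called visceral endoderm where Ttr, Apoa1 and Spink1 together reached 20 per 10000 transcripts, and all other cells, here called embryonic cells, were split by detection of transcripts of T (streak), Mesp1 (early mesoderm) and Foxa2 (endoderm and axial mesoderm). The unmarked class had none of the 3, the T class had T alone, the Mesp1 class had Mesp1 without Foxa2, and the Foxa2 class had Foxa2 without Mesp1. At E6.75 these held 300, 72, 29 and 82 cells, with 39 of visceral endoderm, and at E7.5 116, 126, 125 and 48. Detection depends on depth: median transcripts per cell at E6.75 ran from 33627 in unmarked cells to 61036 in the Mesp1 class. The class names were checked on markers other than T, Mesp1 and Foxa2, which define the classes. The other 7 mesoderm markers summed to 1.403 to 7.24 per 10000 in the Mesp1 class at E6.75 against 0.351 to 1.07 in unmarked cells. The other 7 endoderm and axial markers summed to 3.51 to 12.2 in the Foxa2 class at E7.5 against 0.320 to 3.06, but to 0.527 to 1.70 at E6.75 against 0.663 to 1.83, so at E6.75 they did not set the Foxa2 class apart and the class is Foxa2 detection only.

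Values are counts per 1000000 nuclear transcripts (CPM) of the summed cells of a class in 1 library. Each molecule of RNA is counted once from its 3′ end, so no length correction applies. Differences are log2 of CPM + 10 with the standard error (SE), a scale that understates changes of low genes, and were tested with limma across all genes with Benjamini-Hochberg adjustment at 0.05. The labels do not say that libraries came from separate embryos or litters, so p-values measure the spread between libraries, which may be partly technical.

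Between E6.75 and E7.5 the sterol genes that changed were mostly lower at the later age. Of the 32 genes, 26 were measured highly enough to be tested and 12 passed, 10 lower and 2 higher at E7.5, in a comparison where 38.8% of all 6810 genes tested passed, 20.4% higher and 18.3% lower. The median difference was -0.15 over the 26 genes and 0.02 over all genes. Mvd, Tm7sf2, Sc5d, Dhcr7, Insig1 and Fads2 were too low to test. Among the genes that passed were the regulator Srebf2, Idi1 and Hmgcs1 of the mevalonate steps, Fdft1, Sqle, Lss and Msmo1 of the sterol steps, and Acly, Scd1 and Elovl6 of the fatty acid steps, all lower, and Ebp and Scap, both higher.

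**Figure D1:**
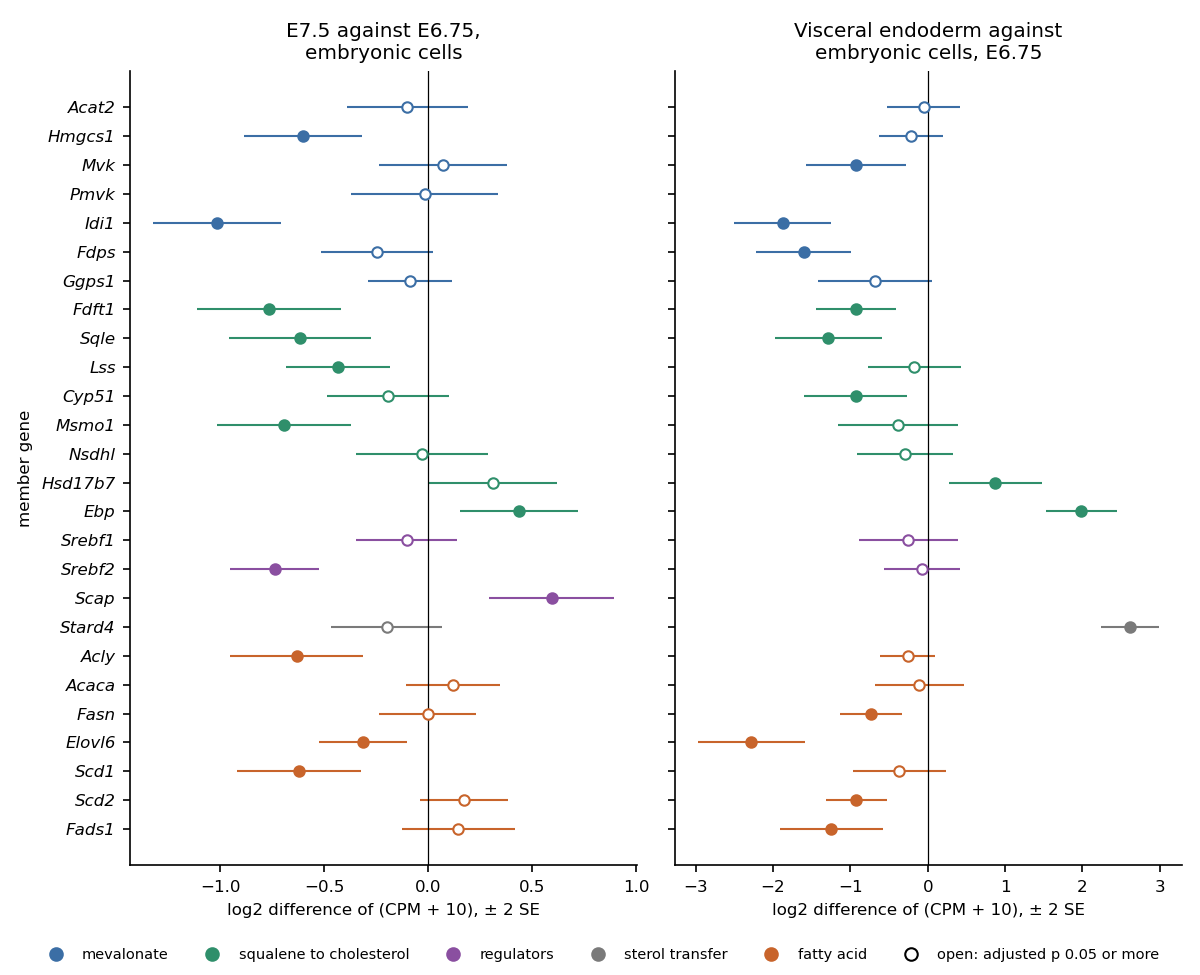
Log2 differences of the tested genes, ordered by role, for E7.5 against E6.75 (left) and for visceral endoderm against the other E6.75 cells (right); lines span 2 SE on each side and open points have an adjusted p of 0.05 or more. In the left panel Idi1 lies lowest at -1.01 and Scap highest at 0.59, and in the right panel Stard4 lies highest at 2.62 and Elovl6 lowest at -2.28.

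In the mevalonate steps, 2 of 7 tested genes passed, both lower. For this and the later groups of steps, the share of all genes that passed was 38.8%. Idi1, the isopentenyl diphosphate isomerase, had 88.8 CPM in the lowest of the 6 E6.75 libraries, a median of 130 and a highest value of 177, against 40.4, 59.4 and 92.0 in the 11 E7.5 libraries. The ranges met only at their ends, with the highest E7.5 library just above the lowest E6.75 library. The difference was -1.01 (SE 0.15, adjusted p = 2.75e-05). Hmgcs1 ran from 76.5 over a median of 126 to 163 CPM at E6.75 and from 55.4 over 80.9 to 107 at E7.5, and the lowest E6.75 library lay inside the E7.5 range. Its difference was -0.60 (SE 0.14, adjusted p = 0.00207). Fdps, the farnesyl diphosphate synthase that feeds both the sterol and the prenylation branches, had -0.25 (adjusted p = 0.158), and Acat2, Mvk, Pmvk and Ggps1 lay between -0.10 and 0.07.

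From squalene to cholesterol, 5 of 8 tested genes passed, 4 lower and Ebp higher. Fdft1, squalene synthase, had 56.9, 96.2 and 107 CPM (lowest, median and highest library) at E6.75 against 20.5, 49.5 and 77.2 at E7.5, a difference of -0.76 (SE 0.17, adjusted p = 0.00152). Only 1 E6.75 library, replicate 2_9, lay inside the E7.5 range. Msmo1, the methylsterol monooxygenase that removes methyl groups from the ring, had 26.4, 41.8 and 48.9 CPM against 8.19, 19.5 and 33.0, a difference of -0.69 (SE 0.16, adjusted p = 0.00182). Its E7.5 median lay under the 20 CPM that the filter asks for, and all E6.75 libraries lay above. Msmo1 was therefore tested through the age at which it is high. Sqle, squalene epoxidase and an early oxygen-requiring step, had 48.5, 79.5 and 87.3 CPM against 16.4, 47.3 and 62.3, a difference of -0.61 (SE 0.17, adjusted p = 0.00697). With only the E6.75 libraries whose names begin with 2, Sqle had -0.54 (adjusted p = 0.0583). For both genes the E7.5 range reached past the lowest E6.75 library and stayed below the E6.75 median. Lss, lanosterol synthase, closes the ring system and had -0.43 (SE 0.13, adjusted p = 0.00934). Ebp went the other way, with 16.0, 25.0 and 28.2 CPM at E6.75 against 23.7, 32.4 and 61.4 at E7.5, a difference of 0.44 (SE 0.14, adjusted p = 0.0186). All E7.5 libraries reached the filter's 20 CPM for Ebp, but the lowest E6.75 library did not. Its groups overlapped. The adjusted p rose past 0.05 without E6.75 replicate 2_12 (difference 0.37), without 2_9 (0.39) or with visceral endoderm cells kept in (0.27). Cyp51, Nsdhl and Hsd17b7 did not pass, with -0.19, -0.03 and 0.31.

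Among the regulators, Srebf2 had 52.3, 60.4 and 89.6 CPM at E6.75 against 27.2, 32.6 and 44.4 at E7.5. Every E6.75 library lay above every E7.5 library. The share of all genes without overlap was not counted, so a lack of overlap here and below is description only. The Srebf2 difference was -0.74 (SE 0.11, adjusted p = 1.68e-05), the smallest p of the list. Scap had 8.69, 17.8 and 20.3 CPM against 17.7, 28.0 and 41.8, higher at E7.5 by 0.59 (SE 0.15, adjusted p = 0.0036), and the ranges overlapped between 17.7 and 20.3 CPM. Only 1 E6.75 library reached the filter's 20 CPM, so Scap was tested through the age at which it is high. Srebf1, which serves mainly the fatty acid genes, had -0.10 (adjusted p = 0.532). Insig1 was under the level needed for a test, with 8.11, 11.05 and 15.8 CPM against 3.06, 5.31 and 16.4. The E7.5 range held the whole of the E6.75 range only through replicate 9, where 1 transcript was worth 2.05 CPM. The other E7.5 libraries reached at most 8.20 CPM.

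**Figure D2:**
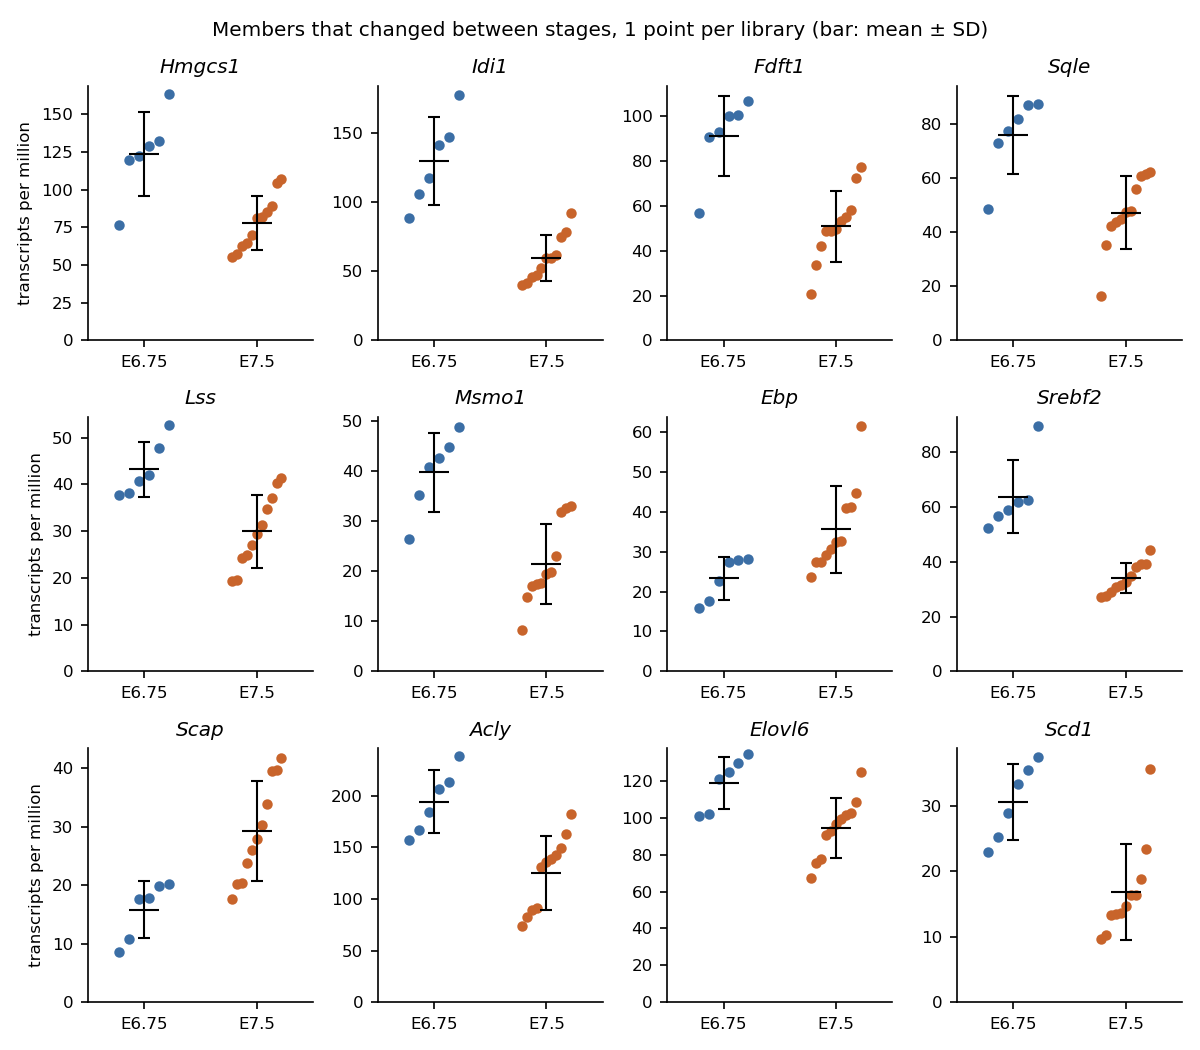
CPM of the 12 genes that passed the test between the ages, 1 point per library with bars at the mean ± SD, with 6 E6.75 and 11 E7.5 libraries. Among these 12, Srebf2 is the gene with no overlap between the ages, which is description only. Scap and Ebp are the pair that sit higher at E7.5.

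In the fatty acid steps, 3 of 7 tested genes passed, all lower. Acly had 157, 195 and 238 CPM at E6.75 against 73.7, 136 and 182 at E7.5, a difference of -0.63 (SE 0.16, adjusted p = 0.00366). Scd1, a stearoyl-CoA desaturase, had 23.0, 31.1 and 37.4 CPM against 9.65, 14.7 and 35.6, a difference of -0.62 (SE 0.15, adjusted p = 0.00252), and the highest E7.5 library lay inside the E6.75 range. Its E7.5 median lay under the filter's 20 CPM and all E6.75 libraries lay above. Scd1 was therefore tested through the age at which it is high. Elovl6, the elongase of palmitate, had -0.31 (SE 0.11, adjusted p = 0.0231), and its adjusted p rose past 0.05 without E6.75 replicate 1_11, 2_13 or 2_14 (differences -0.30, -0.28 and -0.29) or with only the libraries whose names begin with 2 (-0.29). Fasn, fatty acid synthase, had 87.6, 145 and 172 CPM against 109, 143 and 175. Its difference was 0.00 with an interval of 2 SE from -0.24 to 0.23. Scd2, another stearoyl-CoA desaturase gene, had 301, 389 and 441 CPM against 320, 417 and 537, a difference of 0.17 with an interval of -0.04 to 0.38.

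The mevalonate genes together took 5.26 ± 0.73 of 10000 transcripts at E6.75 (SD, n = 6 libraries) and 3.91 ± 0.38 at E7.5 (n = 11). The squalene to cholesterol genes took 3.94 ± 0.56 and 2.97 ± 0.44, and the fatty acid genes 9.78 ± 0.96 and 9.34 ± 1.04. The fatty acid sums differed by less than 1 SD and the others by more. The fatty acid sum leans on Scd2, with a mean of 431 CPM at E7.5, where Fasn, the next highest, had 139. It does not show that each gene held, as Acly, Scd1 and Elovl6 were lower. Hmgcs1 was detected in 82.5% of E6.75 cells and 70.6% of E7.5 cells (mean over libraries), and in 21.9% and 9.85% after each cell was thinned to 2000 transcripts. Msmo1 was detected in 56.6% and 33.9% of cells, and in 6.73% and 2.98% after thinning. Insig1 was detected in 31.0% and 15.1%, but in 1.93% and 1.69% after thinning.

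**Figure D3:**
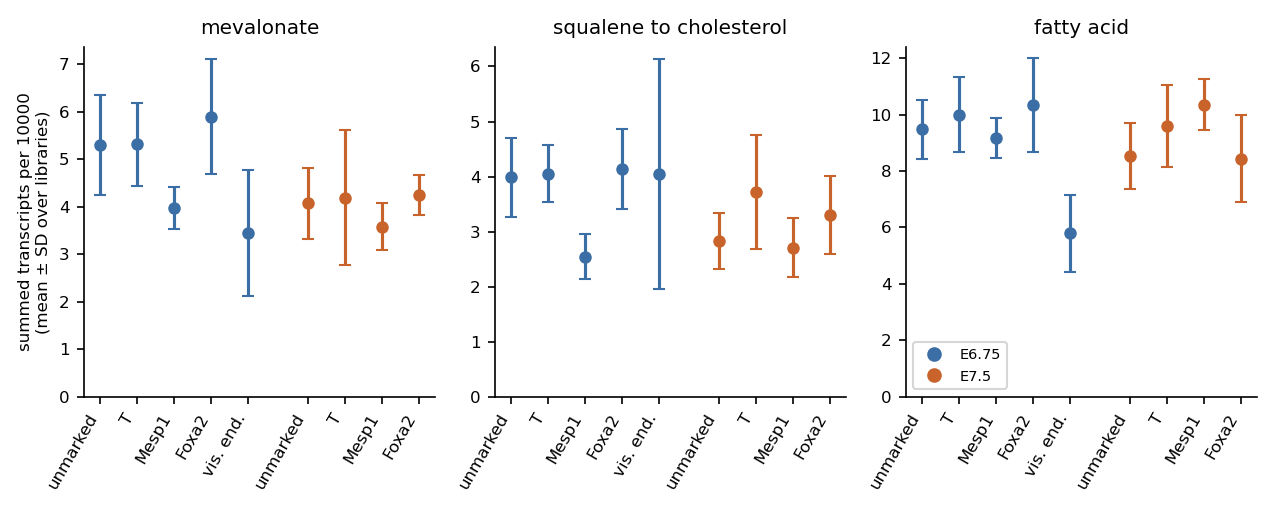
Summed transcripts per 10000 of the mevalonate, squalene to cholesterol and fatty acid genes in each class of cell and age (points are means over libraries, bars ± SD). Embryonic mevalonate sums average 5.26 at E6.75 and 3.91 at E7.5, and the squalene to cholesterol sum of the E6.75 Mesp1 class averages 2.55.

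The makeup of the cells changed between the ages as well. Epiblast markers summed to 19.3 to 25.4 per 10000 in E6.75 libraries and 3.78 to 10.9 at E7.5, and mesoderm markers to 0.591 to 2.82 and 2.74 to 11.3. With unmarked cells alone, 6 genes of the list were called: Srebf2 (-0.90), Idi1 (-0.77), Hmgcs1, Msmo1 and Scap kept their call and Cyp51 gained one, while Acly, Ebp, Elovl6, Fdft1, Lss, Scd1 and Sqle lost theirs. The 7 differences kept their direction, from -0.30 (Elovl6) to -0.62 (Acly) for the lower genes, and 0.23 for Ebp. The unmarked class was itself not alike between the ages. Mesoderm markers other than the class-defining genes summed to 0.351 to 1.07 per 10000 in its E6.75 libraries. In its E7.5 libraries these markers reached 0.631 to 6.55. Unmarked cells alone therefore did not hold makeup constant, and its part in the differences was not tested. With each cell thinned to 2000 transcripts only Hmgcs1, Idi1 and Scd1 kept their call. The other 9 again kept their direction, from -0.41 (Elovl6) to -1.48 (Sqle) for the lower genes, with Scap at 0.83 and Ebp at 0.21. Scaling by a trimmed mean, chosen after seeing the data, moved the median difference of all genes by -0.12 and the share of called genes that were higher from 52.7% to 31.7%; 12 genes of the list were still called, 11 of them lower, with Fdps gained and Ebp lost.

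Beyond the list, 15 of 20 other sterol and fatty acid synthesis genes were tested and 7 passed, 5 lower and 2 higher. Over all genes tested between the ages, 38.8% passed, 20.4% higher and 18.3% lower. Acsl4, an acyl-CoA synthetase, had -0.94 (adjusted p = 8.22e-05), and Elovl1, an elongase of very long chains, had 0.81 (adjusted p = 8.81e-05). Elovl1 had a median of 29.1 CPM at E7.5 but was too low to test in every comparison of embryonic classes at E6.75. It was therefore tested here through the age at which it is high. Of 21 genes of sterol and lipoprotein uptake, efflux and transport, 8 were tested and 5 passed, 4 higher at E7.5 and 1 lower. The higher ones included the lipoprotein receptor gene Lrp1 (0.80, adjusted p = 6.44e-05) and the apolipoprotein gene Apoe (0.88, adjusted p = 0.00029). Lrp1 had 28.7 CPM or more in every E7.5 library but was too low to test between the T class and unmarked cells of E6.75. Like Elovl1, it was tested here through the age at which it is high.

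Visceral endoderm cells of E6.75 differed from the other cells of the same 6 libraries in both directions. Of 24 genes of the list tested, 13 passed, 3 higher and 10 lower, where 34.9% of 6371 genes passed, 14.9% higher and 20.1% lower. The median difference was -0.37 over the 24 genes and -0.15 over all genes. Stard4, which carries cholesterol between membranes, and Ebp were far higher in visceral endoderm, and Elovl6, Idi1 and Fdps were far lower. These sums are shallow: 3 to 16 visceral endoderm cells a library gave 40054 to 413923 transcripts, so that 1 transcript was worth 2.42 to 25.0 CPM and a count of 0 allowed up to 7.25 to 74.9 CPM, for counting error only. The class is a cut on a score, with 20 of its 39 cells between 20 and 50 per 10000 and 4 further cells between 10 and 20. Its identity was checked on 10 other visceral endoderm markers, which summed to 40.7 to 83.5 per 10000 against 3.01 to 4.65 in the other cells, a check by level only: 7 of the 10 reached 20 CPM in no library of the other cells and so entered the test through visceral endoderm alone. Epiblast markers summed to 9.80 to 19.8 per 10000 in the class and 19.3 to 25.4 in the other cells, and the mesoderm gene Mesp1 was at 0 in it; the part of these cells' makeup in the results was not tested.

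Stard4 had 179 CPM in the lowest visceral endoderm library, a median of 256 and a highest value of 277, against 21.5, 31.5 and 34.7 in the other cells. Ebp had 98.0, 124 and 133 CPM against 16.0, 25.0 and 28.2. For both genes the ranges of the classes did not overlap. Values by library are given for genes picked by their small p. A lack of overlap here and in the lower genes below is description only, no separate support. The difference was 2.62 for Stard4 (SE 0.19, adjusted p = 4.56e-08) and 1.99 for Ebp (SE 0.23, adjusted p = 9.00e-06), higher in 6 of 6 libraries. With cells thinned to 2000 transcripts the differences were 1.14 and 1.35 and neither passed (adjusted p = 0.429 and 0.337). Hsd17b7, a ketone-reducing enzyme of the sterol steps, was higher by 0.87 (SE 0.30, adjusted p = 0.0345) in 5 of 6 libraries, and it passed in only 3 of 13 other settings.

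The lower genes came from each stretch of synthesis. Elovl6 had 0, 25.4 and 43.5 CPM against 101, 123 and 134, a difference of -2.28 (SE 0.34, adjusted p = 0.000116). Idi1 had 0, 30.4 and 74.9 CPM against 88.8, 130 and 177, a difference of -1.87 (SE 0.31, adjusted p = 0.000284), and -1.95 with cells thinned (adjusted p = 0.144). Fdps had 0, 19.9 and 36.5 CPM against 51.7, 74.6 and 94.4, a difference of -1.60 (SE 0.31, adjusted p = 0.000852). In these 3 genes every visceral endoderm value lay below every value of the other cells. All 3 reached the filter's 20 CPM in every library of the other cells but not in every visceral endoderm library. They were therefore tested through the other cells, where they are high. Scd2 had 98.0, 219 and 314 CPM against 301, 389 and 441, a difference of -0.92 (SE 0.20, adjusted p = 0.00201), with 1 visceral endoderm library in the overlap. With visceral endoderm cut at 50 per 10000 it had -0.33 (adjusted p = 0.218).

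**Figure D4:**
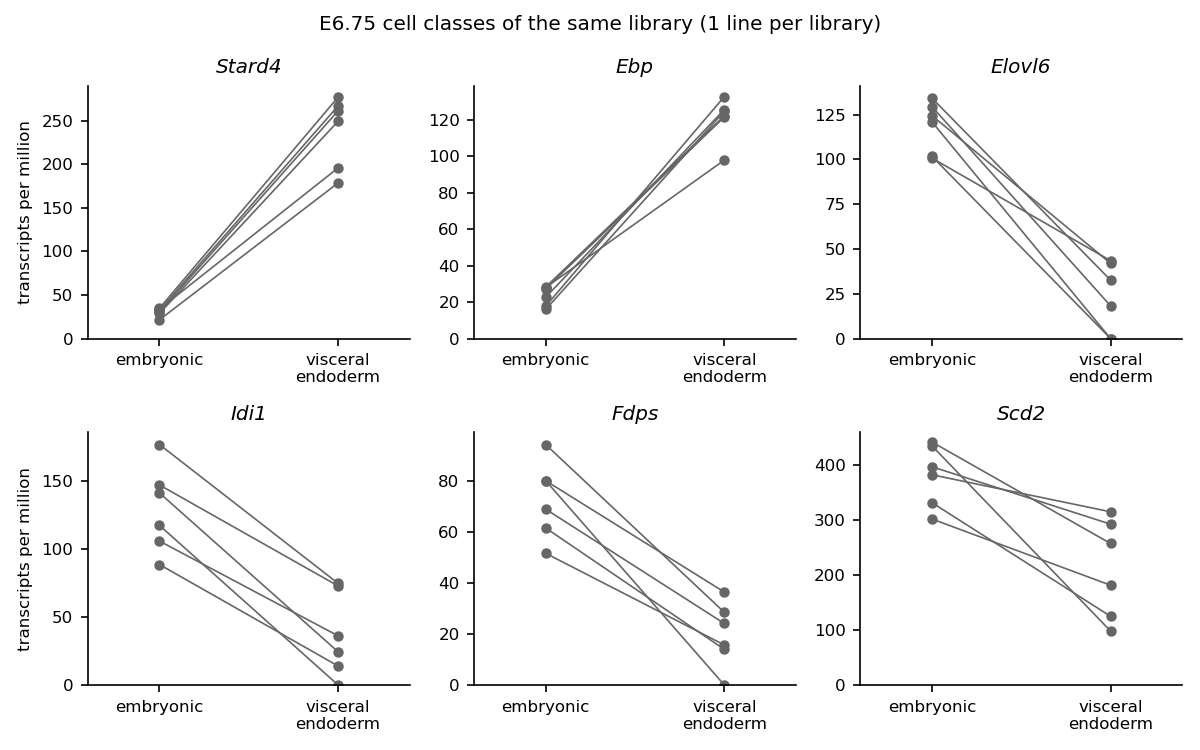
CPM of Stard4, Ebp, Elovl6, Idi1, Fdps and Scd2 in the visceral endoderm and the other cells of E6.75, with lines joining the values of 1 library. Stard4 and Ebp are higher in visceral endoderm in all 6 libraries, and the other 4 genes are lower in all 6.

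Fads1, Sqle, Fasn, Fdft1, Mvk and Cyp51 were also lower, with differences of -1.24, -1.29, -0.73, -0.92, -0.93 and -0.93. Mvk passed in only 2 of 12 other settings, Cyp51 in 6 of 14, Fads1 and Sqle in 11 of 14, and Fasn and Fdft1 in 12 of 14. Fasn missed the threshold without replicate 2_9 (-0.57, adjusted p = 0.053), the library with the most visceral endoderm cells, and with cells thinned (-1.83). Sqle missed it with no filter (-1.29), with cells thinned (-1.32) and with a pseudocount of 1 (-1.98). Fads1 and Fdft1 missed it with the cut at 50 per 10000 (-0.82 and -0.63) and with cells thinned (-2.08 and -1.36), and Fads1 also with a pseudocount of 1 (-1.94). Visceral endoderm values of Msmo1 ran from 0 over 29.2 to 125 CPM, those of Hmgcs1 from 56.0 over 97.9 to 225, and neither gene passed (-0.38 with adjusted p = 0.473, and -0.21 with adjusted p = 0.458). Srebf2 had -0.07 (adjusted p = 0.844). Insig1 had no transcript in 5 of the 6 visceral endoderm libraries and Fads2 had none in all 6, at the depths given above. By role, 3 of 6 tested mevalonate genes and 4 of 7 fatty acid genes were lower, while the sterol steps split into 2 higher and 3 lower of 8. Over all genes tested, 14.9% were higher and 20.1% lower. The trimmed mean scaling moved the median of all genes by -0.26 and the share of called genes that were higher from 42.6% to 21.8%; 13 genes of the list were then called, 11 lower, with Acly gained and Hsd17b7 lost.

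Over all 6371 genes tested between visceral endoderm and the other cells, 34.9% passed, 14.9% higher and 20.1% lower. Of the uptake and transport genes, 8 were tested that reached 20 CPM in the other cells, and 4 of them passed, all higher in visceral endoderm: Npc1, Npc2, Soat1 and Apoe, the last by 4.55 (adjusted p = 1.04e-11). Another 5, Cubn, Amn, Scarb1, Mttp and Apob, reached that level in visceral endoderm alone, so their direction was fixed by the filter and is given as a description. Apob, the structural protein of secreted lipoproteins, was higher by 5.57, Mttp, which loads lipid on it, by 3.73, and the endocytic receptor genes Cubn and Amn by 5.40 and 4.40. Apob, Cubn, Amn and Lrp2 stand on the visceral endoderm marker list too. Of 14 other synthesis genes tested, 3 passed: Fabp5, a fatty acid binding protein gene (-2.28, adjusted p = 4.38e-05), Lbr, a sterol reductase of the nuclear envelope (-1.005, adjusted p = 0.00306), and Tecr (0.39, adjusted p = 0.0318).

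Between the classes of embryonic cells, few genes of the list passed. The comparisons below used the library as a block, and those against unmarked cells share these cells, so they are not independent. At E6.75, 1 of 23 tested genes passed between the T class and unmarked cells, where 0.91% of all genes passed. That gene was Ebp, with 27.5, 36.4 and 65.8 CPM in the T class against 10.8, 13.8 and 20.1 in unmarked cells, and the ranges did not overlap. It reached the 20 CPM asked for by the filter in all 6 sums of the T class but in 1 of unmarked cells, so it was tested through the class in which it is high. The difference was 0.97 (SE 0.15, adjusted p = 0.000643), higher in 6 of 6 libraries. It did not pass without a filter on low values (the same 0.97, over more genes), with cells thinned (0.87) or with the classes read after thinning (0.66). Ebp was too low to test between the other classes and unmarked cells of E6.75. Between the Mesp1 and Foxa2 classes of that age Ebp had 0.13 (adjusted p = 0.932). It had 18.7, 23.3 and 49.6 CPM in the 3 libraries of the Mesp1 class against 10.8, 13.2 and 13.6 in unmarked cells, with no overlap, and 15.9, 27.9 and 35.3 CPM in the Foxa2 class, higher in 6 of 6 libraries with some overlap. Scd2 was higher in 6 of 6 libraries by 0.34 but missed the threshold (adjusted p = 0.0653). At E7.5 no gene of 22 passed (0.187% of all genes did; 3 of the 22 and 7.01% of all genes had an unadjusted p under 0.05), and Ebp had 0.33. The change of the Ebp difference between the ages was -0.64 (adjusted p = 0.9998), and in that test of the change none of 28 genes passed, with 1 under an unadjusted 0.05 and 0% of 7422 genes passing, 267 of them under an unadjusted 0.05.

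The Mesp1 class at E6.75 rests on 29 cells in 3 libraries, of which replicate 2_9 gave 3 cells. None of 23 genes passed limma's test against unmarked cells, where 0.593% of all genes did; 7 of them had an unadjusted p under 0.05, all lower, as did 8.86% of all genes in either direction. Msmo1 had 22.1, 6.61 and 0 CPM in replicates 2_13, 2_14 and 2_9 of the Mesp1 class against 55.6, 33.0 and 23.7 in unmarked cells. Each library was lower in the Mesp1 class and the classes did not overlap, which is description only. Only replicate 2_13 of the Mesp1 class reached the filter's 20 CPM, while all 3 unmarked sums did. Msmo1 was therefore tested through unmarked cells, where it is high. The difference was -1.38 (SE 0.25, adjusted p = 0.0527). It passed in 7 of 11 other settings. Among them were the 3 that left out 1 library, with -1.56 without 2_13 (adjusted p = 0.046), -1.39 without 2_14 (0.0235) and -1.20 without 2_9 (0.0366). Each of these fits held fewer than 3 libraries, so passing there is no separate support. The threshold was unstable: 37 genes of all those tested passed in the reported fit and 3 to 306 in the other settings. Sqle had 49.1, 31.4 and 28.1 CPM against 96.8, 77.4 and 45.2, a difference of -0.82 (adjusted p = 0.148). Hmgcs1 had 83.6, 74.4 and 56.1 CPM against 152, 103 and 80.3, a difference of -0.55 (adjusted p = 0.275). Both were lower in 3 of 3 libraries, and their ranges overlapped between classes.

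**Figure D5:**
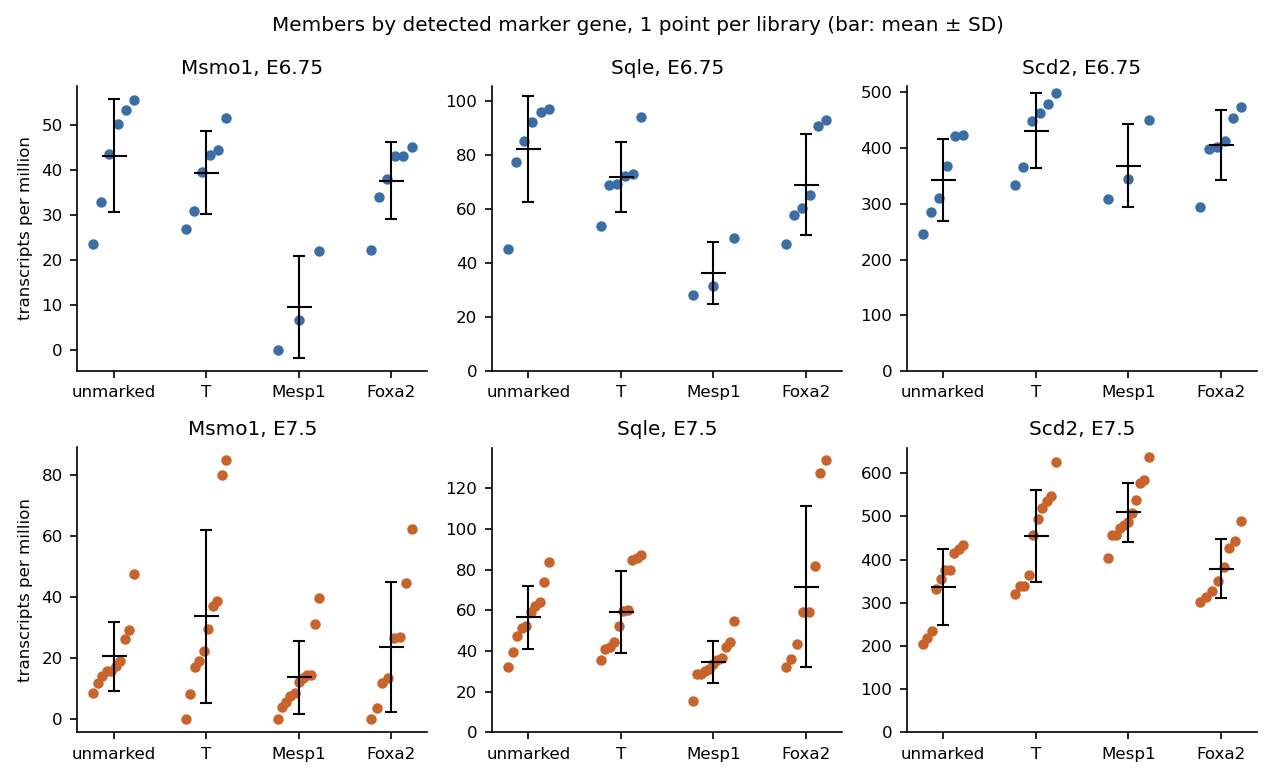
CPM of Msmo1, Sqle and Scd2 by class of cell at E6.75 and E7.5, 1 point per library with bars at the mean ± SD. The 3 Msmo1 values of the E6.75 Mesp1 class, at 22.1, 6.61 and 0 CPM, lie below all unmarked values of the age, and Scd2 of the E7.5 Mesp1 class runs from 403 to 638 CPM.

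Set against the Foxa2 class of the same 3 libraries, no gene of 25 passed (0.238% of all genes did), while 11 had an unadjusted p under 0.05, all lower in the Mesp1 class; 6.65% of all genes had one. Msmo1 in the Foxa2 class was 43.1, 45.2 and 34.1 CPM, again above every value of the Mesp1 class, and the difference was -1.53 (SE 0.30, adjusted p = 0.128). Here Msmo1 was tested through the Foxa2 class, where it is high. Sqle had -0.99 (adjusted p = 0.128) and Hmgcs1 -0.68 (adjusted p = 0.422), both lower in 3 of 3 libraries. Fasn had 0.02 and Srebf2 0.33. The summed sterol genes took 2.55 ± 0.41 of 10000 transcripts in the Mesp1 class (SD, n = 3), 3.99 ± 0.72 in unmarked cells (n = 6) and 4.14 ± 0.72 in the Foxa2 class (n = 6), and the mevalonate genes 3.98 ± 0.44, 5.31 ± 1.05 and 5.90 ± 1.22. The 21 cells with both Mesp1 and Foxa2 gave 2 libraries with 3 cells or more, with sterol sums of 3.55 and 5.22.

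At E7.5 the Mesp1 class was compared in 10 libraries and 2 of 23 genes passed, where 4.93% of all genes did. Scd2 had 403, 498 and 638 CPM (lowest, median and highest) against 205, 365 and 433 in unmarked cells, and was higher in 10 of 10 libraries with a small overlap of the ranges. The difference was 0.63 (SE 0.10, adjusted p = 0.000272), and it passed in 16 of 18 other settings; it did not with cells thinned (0.48) or with the classes read after thinning (0.14). Idi1 was lower in 8 of 10 libraries by 0.71 on the log2 scale (difference -0.71, SE 0.19, adjusted p = 0.0256), and passed in 8 of 18 other settings. Leaving out replicate 1, 11, 12, 3, 6 or 7 raised its adjusted p to between 0.0504 and 0.0854. Ebp, higher in 10 of 10 libraries, had 0.57 (adjusted p = 0.0902), Sqle had -0.50 (adjusted p = 0.124) and Hmgcs1 0.04 (adjusted p = 0.96). Msmo1 was too low at E7.5 to test, with 0, 12.2 and 39.7 CPM in the Mesp1 class and 8.75, 16.7 and 47.6 in unmarked cells.

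Against the Foxa2 class at E7.5 none of 23 genes passed (3.59% of all genes did; 7 of the 23 and 16.2% of all genes had an unadjusted p under 0.05). Scd2 had 0.43 (adjusted p = 0.0573) and was higher in 7 of 8 libraries. Sqle had -0.74 (adjusted p = 0.114) and was lower in 8 of 8, and Cyp51, the lanosterol demethylase, had 1.06 (adjusted p = 0.179). The change of the Mesp1 to Foxa2 difference between the ages passed for none of 28 genes (0.0475% of all genes; 3 of the 28 and 3.41% of all genes had an unadjusted p under 0.05), with the change of Cyp51 at 1.94 (adjusted p = 0.9999).

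Between the Foxa2 class and unmarked cells, none of 23 genes passed at E6.75, where 0.113% of all genes did; 2 of the 23 and 6.69% of all genes had an unadjusted p under 0.05. Scd2 had 0.25 (adjusted p = 0.446), higher in 6 of 6 libraries. At E7.5 none of 23 passed, where 0.706% of all genes did and 3 of the 23, against 11.995% of all genes, had an unadjusted p under 0.05, with Hmgcs1 at 0.51 (adjusted p = 0.307). No gene of the other synthesis list or of the uptake list passed limma's test in any comparison of these classes, with 0 to 4 genes of a list under an unadjusted 0.05, as were 3.41% to 16.3% of all genes.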

How the data were processed

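The deposited tables, 1 per library, give transcripts per gene and cell barcode, counted by unique molecular identifier; per the values in the deposited files, each comes from a whole count k by the logarithmic collision formula for 4096 identifiers, so the authors corrected for collisions between identifiers and applied no other scaling. Per the submitters' processing notes, bcl2fastq 2.17.1.14 and BWA 0.6.2-r126 were used; genome build, annotation, counting program and strand use are not given in the sources used here, so overlapping and antisense genes cannot be told apart. The 96 barcode columns in use of 192 were taken per library, and cells of at least 2000 nuclear transcripts were kept; no doublet caller was run. Rounded transcripts were summed per library and class (at least 3 cells; 10 for whole libraries), divided by nuclear totals, and tested as log2(CPM + 10) with limma 3.58.1 in R 4.3.3 (trend, library as a block within a stage), over genes at 20 CPM or more in as many sums as the smaller group has. A count model had been planned; limma replaced it because the form of the deposited tables kept their unit from being checked by the standard tool, and the formula was checked directly. Replicate libraries differed beyond sampling noise (chi-square per degree of freedom 3.25 to 17.2 in E6.75 pairs and 2.01 to 10.6 in E7.5 pairs). Promoters came from RefSeq (GRCm38.p6). The genes and lists were chosen with earlier results of these data known. Any gene of the list could be named: those past the threshold with full values, Msmo1, Hmgcs1, Sqle, Insig1, Srebf2, Fasn and Scd2 by value in any case, and others under it by range or as examples chosen after their values were seen. Python 3.11.15 with pandas 2.3.3 and numpy 2.4.6 did the rest, and the code was tested on simulated data.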

Additional observations from a re-analysis of the deposited data

Results flagged for a closer look

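In the 6 E6.75 libraries, 1 library stood apart from the others for 3 of the 32 genes, as judged by the gap to the nearest library over the whole range; chance gives about 1 in 20 genes. Fdft1 had 56.9 CPM in replicate 2_9, and the nearest other library had 90.4 CPM. Sqle had 48.5 CPM in replicate 2_9, and the nearest had 73.0. Srebf2 had 89.6 CPM in replicate 2_12, and the nearest had 62.6. Replicate 2_9 was the lowest E6.75 library for 16 of the 32 genes and the highest for 0, while it was the lowest for 27.7% of 5353 genes. Replicate 2_13 was the highest for 16 of the 32, and for 18.3% of all genes. Without 2_9, Fdft1 and Sqle kept their lower call at E7.5, and without 2_12 so did Srebf2 (-0.65).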

How the results depend on the processing

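No called value changed sign under any setting run. Thinning each cell to 2000 transcripts left 3 genes called between the ages, 0 for the T class at E6.75, 0 for the Mesp1 class at E7.5 and 4 for visceral endoderm; unmarked cells alone left 6 between the ages. With only the E6.75 libraries whose names begin with 2, 10 were called (Sqle and Elovl6 lost), and with visceral endoderm kept in 12 (Ebp lost, Stard4 gained). Without a filter on low values, the T class at E6.75 gave 0, and the Mesp1 class gave 1 at E6.75 and 1 at E7.5. Without extraembryonic ectoderm cells, the T class at E6.75 gave 2, the Mesp1 class at E6.75 gave 1 and Mesp1 against Foxa2 at E7.5 gave 1. With at least 5 cells a class, the Mesp1 class gave 2 at E6.75 and 1 at E7.5, and Mesp1 against Foxa2 gave 2 and 1. Classes read after thinning gave 0 (T, E6.75), 2 (Mesp1, E6.75) and 0 (Mesp1, E7.5). Trimmed mean scaling gave 1 (Mesp1, E6.75), 2 and 1 (Mesp1 against Foxa2, E6.75 and E7.5). Visceral endoderm at 50 per 10000 gave 8, as did a pseudocount of 1; the scaling and this pseudocount were chosen after seeing the data. Leaving out 1 library gave 11 to 12 genes between the ages, 1 to 2 for T at E6.75, 1 to 2 for Mesp1 at E6.75, 1 to 3 for Mesp1 at E7.5, 1 to 2 and 0 to 1 for Mesp1 against Foxa2 at E6.75 and E7.5, and 9 to 12 for visceral endoderm. The cause was not tested. Over all genes, the counts called were 2639 between the ages (447 to 3316 over the other settings), 2226 for visceral endoderm (834 to 3844), 56 and 12 for the T class at E6.75 and E7.5 (4 to 71 and 1 to 46), 37 and 314 for Mesp1 (3 to 306 and 12 to 308), 7 and 46 for Foxa2 (1 to 61 and 7 to 92), 15 and 232 for Mesp1 against Foxa2 (1 to 121 and 22 to 230), and 4 and 0 for the changes between the ages of Mesp1 against Foxa2 and of T (0 to 17 and 0 to 1). No paired analysis was possible because the ages share no replicate numbers; within an age the library was the block in the reported values, and with no library block the counts of genes of the list were as reported in the 11 such comparisons except visceral endoderm, where 12 were called and Mvk was lost (adjusted p = 0.0512). DESeq2 was not run. With 3 Mesp1 libraries at E6.75 and visceral endoderm sums of 40054 transcripts at the least, depth limits what could be called there.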
